A study of Mus musculus with 12 samples.

Results

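The cytosolic ribosomal protein genes were examined in mouse embryonic stem cells of the 129SvEv strain. Members were the named rows of the FPKM table (fragments scaled to transcript length and library size) that carry a standard Rpl or Rps symbol, or Rplp0, Rplp1, Rplp2, Rpsa or Fau. Pseudogene rows were left out, as were the kinases that phosphorylate ribosomal protein S6. With 1 row per name and a mean of at least 1 FPKM, 77 of 13508 named genes were members, and all 77 passed the filter on low values. They comprised 46 genes of the large 60S subunit and 31 of the small 40S subunit. Of 79 core ribosomal proteins 71 were among them, the other 6 members being paralogues of a core protein.

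Each of the 12 libraries came from a separate dish. The WT group held cell lines 18 and 26, and the null group held lines 25 and 39, which are Arkadia -/-. Arkadia is the RING-type ubiquitin ligase encoded by Rnf111. All dishes were kept in N2B27 medium on fibronectin for 24 h and then for 4 h with SB431542 at 10 µM, which blocks the kinase of the type I receptors for Activin, Nodal and TGFβ. A dish of each line was harvested at that point (SB), and the others received N2B27 with 10 ng/ml Activin A for 3 h or 6 h. A group was therefore 1 genotype and 1 treatment, with n = 2 cell lines. No dish was given medium without Activin for the same hours, so Activin, inhibitor removal, medium change and time in culture cannot be told apart. How the lines were derived is not given in the labels.

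Ribosomal proteins fold around ribosomal RNA to form the 40S subunit, which reads the mRNA, and the 60S subunit, which joins amino acids. A ribosome needs most of its proteins in equal numbers, and cells keep their synthesis balanced. Most of their mRNAs start with a run of pyrimidines (C or T), the terminal oligopyrimidine tract, through which the kinase mTOR and the RNA-binding protein Larp1 govern translation and mRNA stability. Rapidly dividing cells such as embryonic stem cells devote a large part of their mRNA to these genes.

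A pyrimidine run near the annotated start was common among the members. RefSeq start regions of GRCm38.p6 (the assembly called mm10) were matched for 57 members. A run of at least 8 bases, each C or T, lay within 50 bases of the annotated start on the gene's strand in 47 of the 57 (82.5%), and in 35.7% of 32782 start regions of other genes. The letters CTTTCC were found in the same stretch in 26.3% and 4.64%. CCGGAAG, the core letters bound by Ets-family factors such as Gabpa, was searched on both strands over the 250 bases before and 50 after the start and was found in 42.1% and 8.8%. The 6 stretches below belong to the 3 core members with the largest and the 3 with the smallest WT change at 3 h that had a start region, and capitals mark the longest pyrimidine run within 50 bases of the annotated start.
Rpl41: cgccattaaatagcagtaggCCTCCCTCTC
Rps12: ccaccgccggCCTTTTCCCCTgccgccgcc
Rps24: ttggtcggcagtgagcggTCCTCTTTTCCT
Rpl28: gcctctcgtgTCTCTCTTTCCgtctccggc
Rps26: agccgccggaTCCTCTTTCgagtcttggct
Rpl4: aggagcgtggCCTTCTCCTCTCCCCgtcat
In mm10 the Rpl41 stretch lies at chr10:128549119-128549148 (minus strand) and that of Rps12 at chr10:23787182-23787211 (minus strand). Those of Rps24 and Rpl28 lie at chr14:24490698-24490727 and chr7:4792952-4792981 (both plus strand). The Rps26 stretch lies at chr10:128626484-128626513 (minus strand) and that of Rpl4 at chr9:64173403-64173432 (plus strand). The run was 9 to 15 bases long in these 6, so members with large and with small changes both carried one. In Rpl28 it began 3 bases before the annotated start, and in the others it began 4 to 41 bases into the annotated transcript, so the annotated start and the start used in these cells may differ. The runs of Rpl41 and Rps24 reached the end of the stretch searched.

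Read totals are unknown. Steps between low FPKM values put 11 libraries at 1.22 to 1.81 times the depth of the 6 h library of null line 39. Rnf111 was at 3.19 to 4.27 FPKM in the WT libraries and 0.539 to 0.855 FPKM in the null libraries. Of the pluripotency markers Pou5f1 stood at 562 to 926 FPKM in every library, Nanog at 3.45 to 5.44 FPKM in SB and 44.7 to 85.1 FPKM in Activin, and Esrrb at 1.55 to 3.47 FPKM throughout. Markers of other cells differed in level. Col1a1 (fibroblasts) was at most 2.14 FPKM, and Sox17 (endoderm) was at most 1.34 FPKM and at 0 in 2 libraries. Higher were Tubb3 (neural) at 15.9 to 26.0 FPKM, Krt7 (trophoblast) at 6.79 to 16.4 FPKM and Thy1 (fibroblasts) at 2.44 to 5.91 FPKM. All 10 pluripotency markers were measured, and 3 rose and 5 fell in WT at 3 h, while their sum, to which Pou5f1 contributed most, was 1057 to 1172 FPKM in SB and 1362 to 1618 FPKM in Activin. The 6 of 10 fibroblast markers measured summed to 11.3 to 17.5 FPKM in SB and 10.1 to 20.01 FPKM in Activin, and the 5 of 8 neural markers to 28.1 to 35.4 FPKM and 21.1 to 30.7 FPKM. The 4 of 8 endoderm markers summed to 1.58 to 3.01 FPKM in SB and 2.15 to 3.96 FPKM in Activin, and the 7 of 8 trophoblast markers to 14.01 to 20.02 FPKM and 14.97 to 27.99 FPKM. The part of these marker levels in the results below was not tested. In bulk RNA, more ribosomal protein mRNA per cell and a different mix of cells cannot be told apart, and FPKM does not give amounts per cell. Summed FPKM over all loci also differed between libraries. In SB and at 3 h it was 578104 and 710393 in WT line 18, and 584627 and 721405 in WT line 26. Null line 25 had 604602 and 779113, and null line 39 had 722232 and 785508. A change in FPKM is therefore not the same as a change in share of the library, which is given separately below.

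A pair of libraries stood apart where members are concerned. In SB, null line 39 had the highest value of the 4 lines for 68 of 77 members, against 31.9% of all tested genes. Its median member level was 0.41 (log2) above WT line 18, 0.47 above WT line 26 and 0.33 above null line 25. The library of null line 25 at 3 h had 11.1% of its summed named FPKM in 3 loci that hold ribosomal RNA sequence (Gm42418, Rn18s-rs5 and Gm15564), against 2.75 to 6.46% in the other libraries. Counts and medians that they move are given with and without them.

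The members were among the most abundant transcripts of these cells. Their mean ran from 3.4 FPKM to 6322 FPKM with a median of 1272 FPKM, against a median of 5.82 FPKM over all named genes. Of the 100 genes with the highest mean 45 were members. Rpl41, a very short basic peptide of the 60S subunit, was the highest at 6322 FPKM (chr10:128548017-128549367). Other very abundant members were Rpl32 (5124 FPKM), Rpl13a (4444 FPKM), Rps18 (4156 FPKM) and Rpl9 (3441 FPKM). The lowest were all paralogues: Rpl3l, the muscle form of Rpl3, had 3.4 FPKM, Rpl10l, a retrogene copy of Rpl10 known from testis, had 28.3 FPKM, Rpl39l had 46.2 FPKM and Rpl7l1 had 182 FPKM. Rpl3l was the member nearest to the minimum of 1 FPKM, and no name fell below it, although second rows of Rpl3, Rpl6 and Rps24 did (0.665, 0.557 and 0.473 FPKM).

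**Figure D1:**
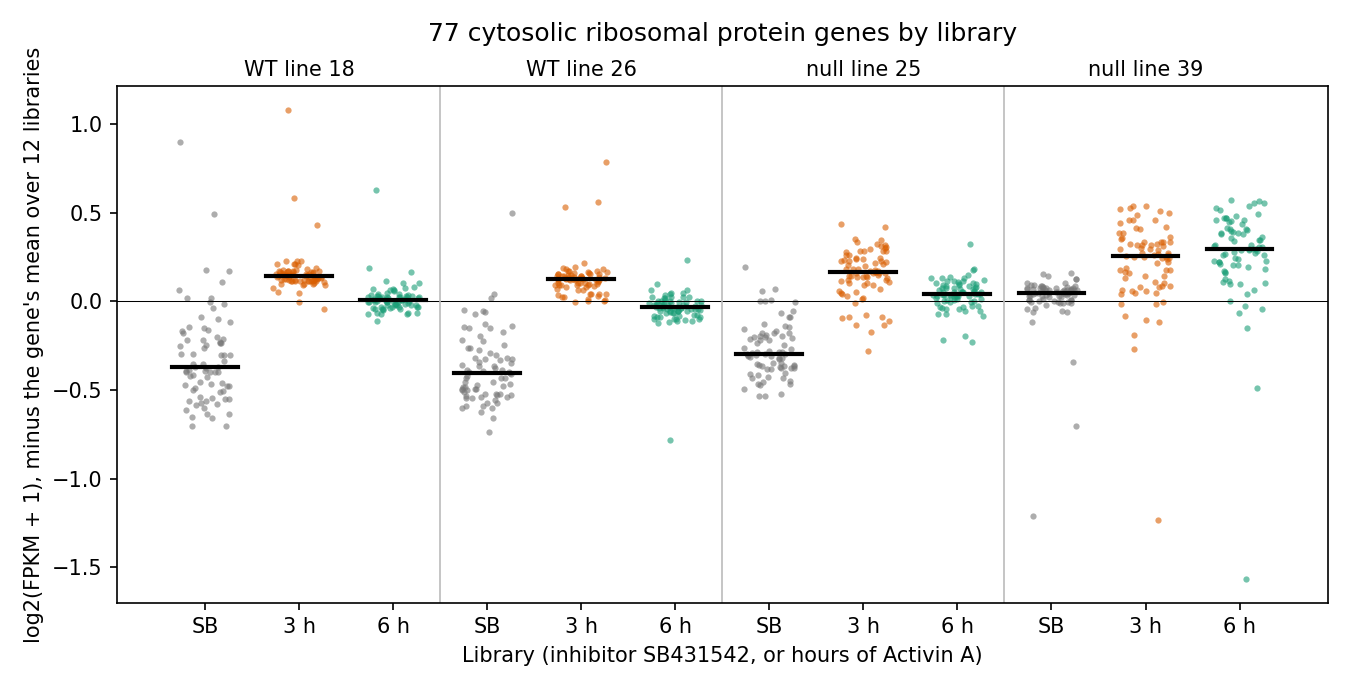
Level of each of the 77 genes in each library, as log2(FPKM + 1) minus that gene's mean over the 12 libraries (vertical axis), with 1 point per gene and a black bar at the median. The SB libraries of WT lines 18 and 26 and null line 25 lie below the Activin libraries, and that of null line 39 lies within the range of the Activin libraries.

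In WT cells most ribosomal protein genes were higher after 3 h of Activin than in SB. By limma, 59 of 77 rose and 0 fell, where 12.6% of the 12823 genes tested rose and 9.83% fell. The median change was 0.55 on the log2(FPKM + 1) scale, from -0.04 (Rpl4) to 0.82 (Rps27l), and the median over all tested genes was -0.01. Both WT values at 3 h lay above both in SB for 71 members and below them for 0, while 34.9% of all tested genes separated upwards in this way and 35.6% downwards. Within a line, 73 members were higher at 3 h in line 18 and 76 in line 26, with median changes of 0.54 and 0.55. The median SE of a member's change was 0.14 (n = 2 lines). With the cell line as a block, 69 rose and 0 fell (21.3% of all genes rose and 15.9% fell). With either WT line left out, 0 of 77 were called, a single library then standing for each WT group (without line 18, 1.06% of all genes rose and 0.0546% fell, and without line 26, 0.983% and 0.0858%).

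Of the 31 members of the small subunit 28 rose at 3 h in WT, with a median of 0.57. Rps27l, a paralogue of Rps27 induced by p53, showed the largest change of all members. It read 1291 and 1328 FPKM in SB and 2319.5 and 2314 FPKM at 3 h in WT lines 18 and 26. The groups did not overlap, and the change was 0.82 ± 0.20 (SE; limma adjusted p = 0.0242). Rps12 changed by 0.78 (limma adjusted p = 0.0239) and Rps24, mutated in Diamond-Blackfan anaemia, by 0.77 (limma adjusted p = 0.0276). Rps15a read 128 and 141 FPKM in SB and 224 and 235 FPKM at 3 h, a change of 0.77 ± 0.15 (limma adjusted p = 0.0098). Rps18, among the most abundant of the subunit, rose by 0.64 (limma adjusted p = 0.0319). Rps26, which contacts the mRNA near the exit site, went from 954 and 848 FPKM to 916 and 886 FPKM, so the groups overlapped (change 0.00 ± 0.09). Rps2 changed by 0.07 ± 0.08 (limma adjusted p = 0.533), and Rps29 was the other 40S member not called.

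Of the 46 members of the large subunit 31 rose, with a median of 0.43. With the line as a block 40 of these 46 and 29 of the 31 small-subunit members rose, and the difference between subunits was not tested. Rpl41 read 4146 and 3662 FPKM in SB and 6713 and 6722 FPKM at 3 h, a change of 0.79 ± 0.24 (limma adjusted p = 0.0463). Rpl32 rose by 0.63 and Rpl9 by 0.69 (limma adjusted p = 0.0403 and 0.0334). Rpl13a, also known from a complex that silences inflammatory mRNAs, had 2952 and 2995 FPKM in SB and 4906 and 5023 FPKM at 3 h without reaching the threshold (0.74 ± 0.24, limma adjusted p = 0.059). It was called with the line as a block (limma adjusted p = 0.00232). At the other end, Rpl4 read 1151 and 1048 FPKM in SB and 1099.8 and 1036 FPKM at 3 h (-0.04 ± 0.09). Rpl28 read 401 and 339 FPKM in SB and 401 and 367 FPKM at 3 h (0.06 ± 0.09). Neither group pair separated. The summed 60S FPKM was 1.23 and 1.22 times the summed 40S FPKM in SB in WT lines 18 and 26, and 1.19 times in both at 3 h.

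The acidic stalk recruits elongation factors. Its base protein Rpl12 rose by 0.65 (limma adjusted p = 0.0299) and the tip protein Rplp2 by 0.38 (limma adjusted p = 0.0481). Rplp0, the stalk's scaffold, read 2827 and 2645 FPKM in SB and 3303 and 3115 FPKM at 3 h, a change of 0.23 ± 0.14 that was not called. Rplp1 read 1514 and 1349 FPKM, then 1732 and 1638 FPKM, and was likewise not called (0.24 ± 0.11). Both were called with the line as a block (limma adjusted p = 0.0243 and 0.0462). The 5S ribonucleoprotein carries 5S RNA into the large subunit and, when unassembled, restrains Mdm2. Its members Rpl5 and Rpl11 rose by 0.69 and 0.50 (limma adjusted p = 0.0364 and 0.0199). Of the 9 measured proteins at the rim of the polypeptide exit tunnel 8 rose, with a median of 0.58. Rps27a and Fau are made as fusions with ubiquitin and a ubiquitin-like protein, and they rose by 0.73 and 0.59 (limma adjusted p = 0.0139 and 0.0329).

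The paralogues split. Besides Rps27l, 2 of the 6 rose at 3 h in WT. Rpl22l1, which can take the place of Rpl22, went from 288 and 320.0 FPKM to 456 and 487 FPKM (0.63 ± 0.12, limma adjusted p = 0.0104). Rpl39l, a germ-cell form of Rpl39, went from 44.8 and 45.6 FPKM to 67.7 and 66.9 FPKM (0.56 ± 0.14, limma adjusted p = 0.0275). Rpl7l1, which works in large-subunit assembly, stayed between 171 and 184 FPKM in the WT libraries (0.05 ± 0.09 at 3 h). Rpl10l gave 0.24 ± 0.56 and Rpl3l 0.30 ± 0.33, neither called, and Rpl3l at 1.46 to 5.14 FPKM had the lowest level. For Rpl10l the block brought the call at 3 h (limma adjusted p = 0.0145).

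**Figure D2:**
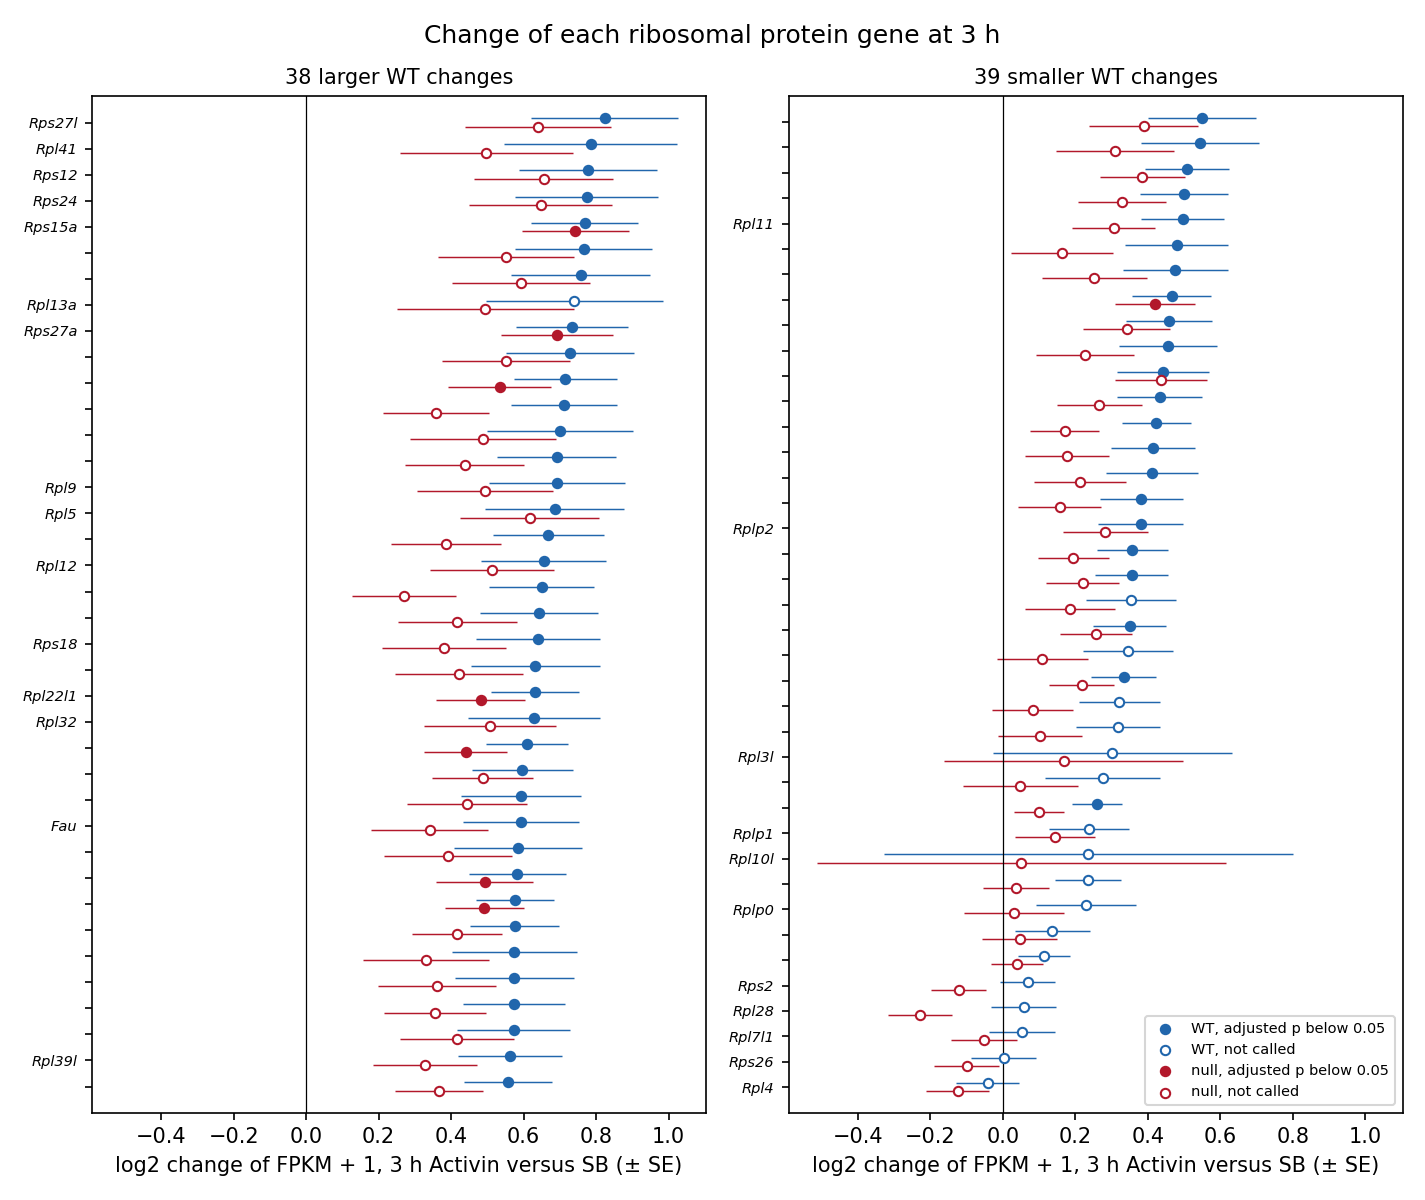
Change of every member between SB and 3 h of Activin (horizontal axis, log2 of FPKM + 1, with SE) in WT (blue) and null cells (red), ordered by the WT value, with filled circles at an adjusted p below 0.05 and gene symbols for part of the members. WT values run from -0.04 to 0.82 and the null value of each of the 77 lies to the left of the WT value.

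After 6 h the WT members stood between SB and 3 h. Their median change from SB was 0.37, with 7 of 77 called higher and 0 lower by limma (9.59% of all genes were called higher and 6.31% lower). The 7 were Rps15a, Rpl22, Rpl22l1, Rps21, Rpl36, Rpl26 and Rpl38, at 0.42 to 0.58. With the line as a block 64 rose and 1 fell (21.6% of all genes rose and 12.3% fell), the fall being Rpl10l (-0.27, limma adjusted p = 0.01). Both WT values at 6 h lay above both in SB for 69 members and below them for 1, Rpl4 (37.2% of all tested genes separated upwards and 32.2% downwards). Against 3 h the median was -0.15, and both 6 h values lay below both 3 h values for 65 members, where 26.7% of all tested genes separated downwards. Rps27l read 2096 and 2059 FPKM at 6 h, and Rpl41 read 6409.5 and 5706 FPKM. Limma called 0 members between 6 h and 3 h (1.22% of all genes were called higher and 1.31% lower), with an unadjusted p below 0.05 for 2 (16.9% of all genes), and with the block it called 1 lower (3.7% of all genes were called higher and 2.94% lower), Rpl10l (-0.51, limma adjusted p = 0.00763). With the library of null line 39 in SB left out, 41 members rose at 6 h against SB (13.5% of all genes rose and 7.93% fell), and with that of null line 25 at 3 h left out, 3 rose (8.34% and 5.43% of all genes), because the libraries share 1 estimate of the spread.

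In null cells the same comparison gave smaller changes and fewer calls. At 3 h 8 of 77 rose and 0 fell by limma (6.5% of all genes rose and 7.14% fell), with a median of 0.34. The 8 were Rps15a, Rps27a, Rpl22, Rps23, Rpl38, Rpl22l1, Rpl26 and Rpl14. With the line as a block 53 rose and 1 fell (15.5% of all genes rose and 14.1% fell). Rps15a read 151 and 201 FPKM in SB and 281 and 305 FPKM at 3 h in null lines 25 and 39 (0.74 ± 0.15, limma adjusted p = 0.0151). Rps27a read 1457 and 1912 FPKM, then 2632 and 2762 FPKM (0.69 ± 0.15, limma adjusted p = 0.0225). The groups of both genes separated. Rps12, Rps24 and Rps27l changed by 0.66, 0.65 and 0.64 and were not called (limma adjusted p = 0.0545, 0.0628 and 0.0698).

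The smallest changes of the null lines belonged to the members that also moved least in WT. Rpl28 read 374 and 362 FPKM in SB and 315 and 312 FPKM at 3 h, so the groups separated downwards, and the change of -0.23 ± 0.09 was called lower with the block alone (limma adjusted p = 0.0202). Rpl4 and Rps2 each changed by -0.12, Rps26 by -0.10 and Rpl7l1 by -0.05, none of them called. Both null values at 3 h lay above both in SB for 59 members and below them for 4, namely Rpl28, Rpl4, Rps2 and Rps26 (25.0% and 30.1% of all tested genes).

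Null lines 25 and 39 differed from each other in this step. The median member rose within line 25 by 0.49 (71 of 77 above 0), close to the WT lines, and within line 39 by 0.21 (67 of 77 above 0). Rpl41 read 4419.8 FPKM in SB and 7159 FPKM at 3 h in line 25, against 6849 FPKM and 8419 FPKM in line 39. For Rpl41, line 39 began above the 3 h values of both WT lines. Without its SB library the null median at 3 h was 0.53. Without the 3 h library of line 25 the median was 0.40. Each of these 2 fits sets 1 null line on one side against the mean of both on the other. The difference in level between lines 25 and 39 is therefore mixed into 0.53 and 0.40, unlike the changes within a line of 0.49 and 0.21. At 6 h the null median was 0.29, with 2 of 77 called higher (Rps15a and Rpl22l1, where 7.87% of all genes were called higher and 5.53% lower). With the block, 54 rose and 1, Rpl10l, fell (19.4% of all genes rose and 12% fell). Without the SB library of line 39 the median at 6 h was 0.47, with the level of line 39 mixed in likewise. Within lines 25 and 39 the median member rose by 0.32 and 0.26 at 6 h. Between 6 h and 3 h limma called 0 null members (2.78% of all genes were called higher and 1.86% lower), with an unadjusted p below 0.05 for 1 (22.2% of all genes), and the block called 1 higher (Rpl7) and 1 lower (Rpl10l), where 8.89% and 4.55% of all genes were called. The median within line 25 was -0.11 and that within line 39 was 0.05.

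Despite the different sizes, the members kept their order between lines. Across the 77 genes the changes at 3 h of WT lines 18 and 26, which share no library, had Spearman's rho = 0.92. Null line 25 gave 0.94 with WT line 18 and 0.90 with WT line 26. Null line 39 gave 0.77 with WT line 18, 0.86 with WT line 26 and 0.86 with null line 25. These are descriptions across genes of 1 pathway, which are not independent of each other and share features such as transcript length.

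**Figure D3:**
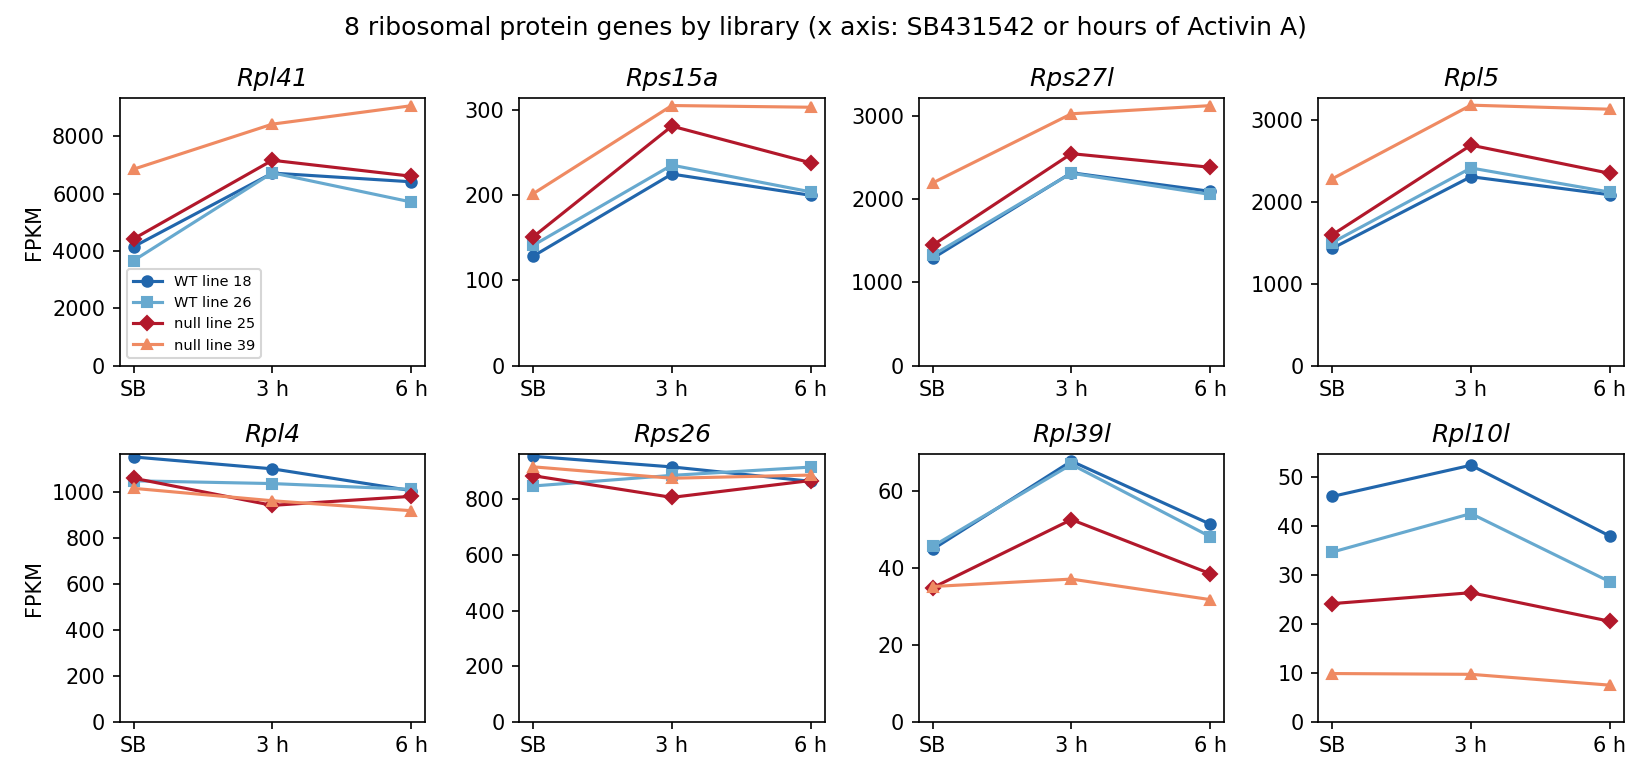
FPKM of 8 members (vertical axes, from 0) in SB and at 3 h and 6 h of Activin (horizontal axes), with 1 line per cell line. Rpl41, Rps15a, Rps27l and Rpl5 lie lowest in SB in every line. Rpl4 is lower at 6 h than in SB in every line, and Rps26 differs in direction between lines. Rpl39l and Rpl10l are lower in the null lines than in the WT lines.

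Limma called no member between genotypes, in SB, at 3 h or at 6 h of Activin. In SB the median null member was 0.26 above WT (0.09 without the SB library of line 39), with 0 of 77 called (0.25% of all genes were called higher and 0.0624% lower) and an unadjusted p below 0.05 for 15 members and 14.9% of all genes. At 3 h the median was 0.07, with 0 called (0.133% and 0.25% of all genes) and 6 at an unadjusted p below 0.05 (12.9% of all genes). At 6 h it was 0.19, with 0 called (0.148% and 0.0624% of all genes) and 5 at an unadjusted p below 0.05 (14.7% of all genes). The block also gave 0 in each. In SB the median member of line 39 was 0.41 above WT line 18 and that of line 25 was 0.06 above it. At 3 h these values were 0.10 and 0.01. At 6 h the median member of line 39 was 0.29 above WT line 18 and that of line 25 was 0.04 above it. With line 25 left out, so that line 39 alone stood for the null cells, 59 members were called in SB (57 higher, 2 lower, and 12.4% and 3.55% of all genes). At 3 h 6 were called (4 higher, 2 lower, and 0.593% and 0.468% of all genes), and at 6 h 51 (49 higher, 2 lower, and 9.47% and 2.29% of all genes). Each null group is then 1 library, assumed to vary like the WT lines, which alone give the spread. With line 39 left out 0 were called at each time. Genotype and line cannot be told apart here.

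Rpl10l had the largest difference between genotypes of any member, and it ran downwards. It read 46.0 and 34.6 FPKM in the SB libraries of WT lines 18 and 26, 24.1 FPKM in null line 25 and 9.86 FPKM in null line 39. At 3 h the 4 values were 52.3, 42.5, 26.3 and 9.7 FPKM, and at 6 h 37.9, 28.6, 20.5 and 7.5 FPKM. WT and null values did not overlap at any time, and the lines kept the same order. The times share the same 4 lines, so they do not repeat the difference independently. The differences were -1.31, -1.49 and -1.33 in SB, at 3 h and at 6 h, each with an SE of 0.56, and none was called (limma adjusted p = 0.332, 0.328 and 0.333). Rpl39l was also lower in the null lines at each time, at 34.9 and 35.2 FPKM against 44.8 and 45.6 FPKM in SB and at 52.6 and 37.1 FPKM against 67.7 and 66.9 FPKM at 3 h. At 6 h its values were 38.5 and 31.8 FPKM against 51.4 and 48.1 FPKM. Its differences of -0.36, -0.60 and -0.50 were not called (limma adjusted p = 0.32, 0.15 and 0.22).

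The response itself was compared between genotypes as the difference of the changes. Its median over members was -0.18 at 3 h, where it was below 0 for all 77 members, and -0.06 at 6 h. Without the SB library of null line 39 the medians were -0.02 and 0.09, and values at 3 h ran up to 0.19. That fit sets SB of line 25 alone against the Activin mean of both null lines. The difference in level between the null lines is mixed in, so the sign at 6 h cannot be read from it. With line 39 left out whole, the medians were -0.06 at 3 h and -0.03 at 6 h. With line 25 left out whole, they were -0.30 and -0.10. Values at 3 h then ran up to 0.12 and 0.51, respectively. Limma called 0 of 77 at 3 h and 0 of 77 at 6 h (0.0% of all genes), with an unadjusted p below 0.05 for 1 and 0 members (5.1% and 2.98% of all genes), and the lowest adjusted p of a member was 0.928 at 3 h. With the block 0 members were called as well. The SE of such a difference had a median of 0.20, which is above the median difference itself. The fewer calls in null cells are not shown to be a difference between genotypes.

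**Figure D4:**
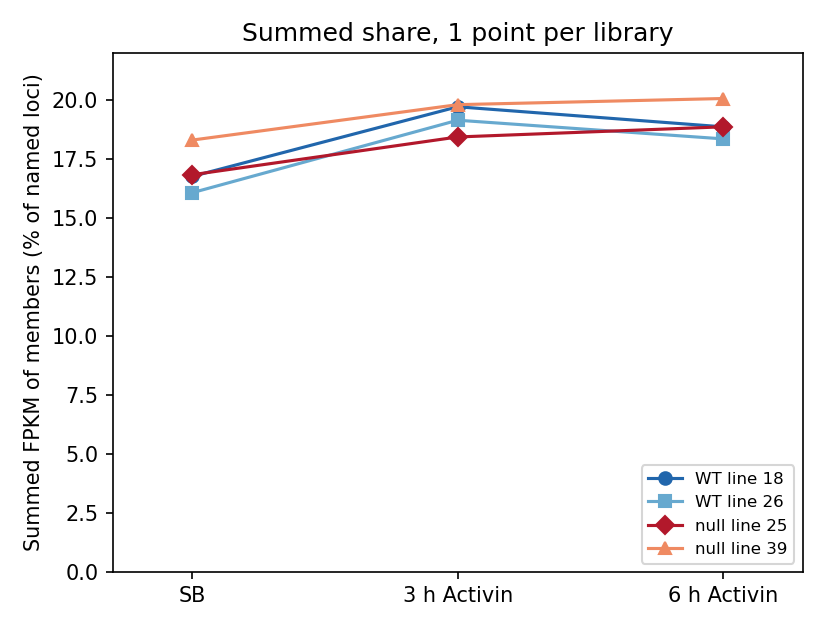
Summed FPKM of the 77 members as a percentage of the summed FPKM of all named loci (vertical axis, from 0) by treatment (horizontal axis), with 1 line per cell line and no error bars, since each point is 1 library. All 8 Activin libraries lie above the 4 SB libraries.

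As a share of the library the members rose from 16.1 to 18.3% of the summed FPKM of named loci in SB to 18.4 to 20.1% in Activin. WT line 18 had 16.8% in SB, 19.7% at 3 h and 18.9% at 6 h. WT line 26 had 16.1%, 19.2% and 18.4%. Null line 25 went from 16.8% to 18.4% and 18.9%, and null line 39 from 18.3% to 19.8% and 20.1%. The 3 h library of line 25 is the one with 11.1% in ribosomal RNA loci, which count in the total. With the 20 other genes of highest mean FPKM taken out of the total, line 25 had 19.1%, 22.7% and 21.4%. Line 39 then had 21.4%, 23.0% and 22.9%, so the order of 3 h and 6 h in the null lines depends on the total used. The 2 Activin libraries of a line lay above its SB library in each of the 4 lines. Their mean was 2.16 percentage points above SB, with p = 0.0123 in a two-sided exact permutation test of the SB label within each line, the smallest p its 81 arrangements can give. Null and WT lines differed by 0.563 percentage points on their means, with p = 0.667 in a two-sided exact permutation test, whose 6 arrangements cannot give a p below 0.333.

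Ribosomal protein mRNAs are short, and other short transcripts were on balance also higher after Activin. The principal transcripts of the members had a median length of 780 nt, against 2641 nt over the tested genes. Among 2045 other genes of similar length (493 to 1354 nt, the middle 80% of the members) 22.5% rose in WT at 3 h, with a median change of 0.20. Of the 422 that also had a mean of at least 100 FPKM, 50.7% rose, with a median of 0.40. The members stood above both at 76.6% and 0.55. In the null cells at 3 h the medians were 0.12 for genes of similar length, 0.24 for the abundant ones among them and 0.34 for the members. Within the members the change also went with length, since the 12 below 500 nt had a median of 0.68 in WT at 3 h and the 14 from 1000 to 1500 nt had 0.31. By the lengths used, Rps15a (5130 nt), Rps20 (3706 nt) and Rpl5 (2045 nt) stood apart from this. These are lengths of the annotated principal transcript. The transcript present in these cells may be shorter, so Rps15a and Rps20 are not shown to be exceptions. Spearman's rho between change and length was -0.40 over the 77 members and -0.23 over 12617 other genes in WT at 3 h. Between change and mean FPKM it was 0.46 over the members. These are descriptions only.

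**Figure D5:**
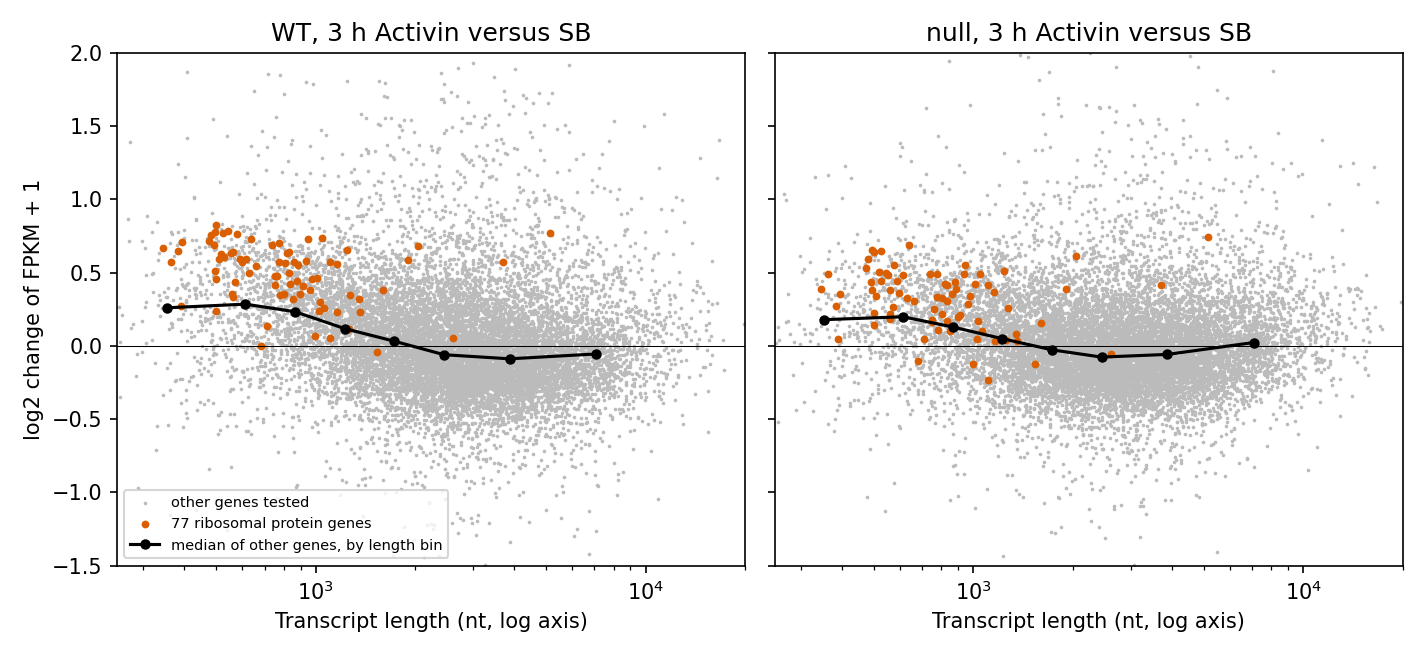
Change of each gene between SB and 3 h of Activin (vertical axis, log2 of FPKM + 1) against transcript length (horizontal axis, log scale) in WT and null cells, with members in orange, other genes in grey and the median of other genes by length bin in black. The axes run from -1.5 to 2 and from 250 to 20000 nt, which leaves out 120 and 103 of 12617 other genes and no member. Most members lie above the black line.

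With the trend of each library on transcript length removed, the members kept a smaller rise. In WT at 3 h 44 of 77 rose and 0 fell (12.3% and 9.52% of all genes), with a median of 0.27, and the median of other genes of similar length was 0.01. For the abundant genes of similar length it was 0.19, with 35.3% called higher. In null cells at 3 h 21 rose and 0 fell (7.84% of all genes rose and 7.65% fell), with a median of 0.16. At 6 h 9 members rose in WT and 6 in null cells and 0 fell (9.26% and 8.84% of all genes rose, and 7.88% and 7.06% fell). Rps15a and Rps27a were above 0 in both fits, and Rps26 turned from 0.00 to -0.28 in WT. The value of Rps15a with the trend removed rests on its annotated 5130 nt. What sets the length trend was not tested. Quantile normalization, which gives every library the same distribution, left a WT median of 0.12 at 3 h with 26 members higher and 4 lower (10.7% and 13.2% of all genes). It left a null median of 0.04 with 12 higher and 5 lower (7.52% and 8.6% of all genes), and under it Rpl32 (-0.01) turned below 0 in WT.

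Many member transcripts have processed pseudogenes or share stretches with other genes. At a median of 54.5% of a member's positions, the 50 bases starting there also occur in a transcript of another gene, and reads of 50 bases from such positions can be split or dropped. The 9 members with under 10% of such positions had a median of 0.48 in WT at 3 h with 5 called higher. The 24 with 10 to 50% had 0.47 with 17 called, and the 44 with more had 0.58 with 37 called. Of all genes tested 12.6% were called higher in this comparison. FPKM levels of members with many copies are uncertain for this reason.

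Other genes of the ribosome and translation machinery did not all follow. The counts below stand against 12.6% of all genes rising and 9.83% falling in WT at 3 h, and 21.3% and 15.9% with the block. Of 16 measured genes that host small nucleolar RNAs, whose spliced RNAs also begin with pyrimidine runs, 12 rose and 0 fell in WT at 3 h, with a median of 0.63. They were led by Snhg9 (1.23, limma adjusted p = 0.0224), Zfas1 (0.86, limma adjusted p = 0.0159) and Snhg1 (0.79, limma adjusted p = 0.0277). Translation factors with such tracts gave 5 of 20 higher and 0 lower, with a median of 0.27, and 13 higher and 1 lower with the block. Naca, Eif3m and Eef1b2 rose by 0.58, 0.55 and 0.55. Of the 34 other initiation and elongation factors 2 rose and 1 fell, with a median of 0.01, and with the block 10 rose and 3 fell. Eif2s1 and Eif4e, the cap-binding protein, rose by 0.56 and 0.38, and Eif2b4 fell by 0.23 on the log2 scale.

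Genes that build ribosomes without being part of them had medians near 0. For synthesis and processing of ribosomal RNA 7 of 51 rose and 5 fell in WT at 3 h, with a median of 0.03. These counts are near the shares of all genes (12.6% and 9.83%). With the block 22 rose, above the 21.3% of all genes, and 8 fell, near the 15.9% of all genes. Taf1d, Pno1 and Twistnb rose by 0.61, 0.60 and 0.47. Taf1d is also counted above among the genes that host small nucleolar RNAs. For assembly of the 60S subunit 5 of 47 rose and 4 fell, again near the shares of all genes, with a median of -0.04. With the block 11 rose, near the 21.3% of all genes, and 12 fell, above the 15.9% of all genes. Rpf1, Bccip and Mrto4 rose by 0.51, 0.46 and 0.46.

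Mitochondrial ribosomal proteins and the respiratory chain, which are encoded by short and abundant transcripts of other pathways, also moved. Of 73 mitochondrial ribosomal protein genes 23 rose and 1 fell in WT at 3 h (12.6% and 9.83% of all genes), with a median of 0.33. With the block 52 rose and 3 fell (21.3% and 15.9% of all genes). Mrpl41, Mrpl48 and Mrpl20 rose by 0.70, 0.65 and 0.61. Of 68 nuclear genes of oxidative phosphorylation 39 rose and 0 fell (12.6% and 9.83% of all genes), with a median of 0.46. Atp5e, Ndufa4 and Cox7a2 rose by 0.72, 0.71 and 0.70. With the length trend removed the medians were 0.16 and 0.21, against 0.27 for the cytosolic members.

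Among 29 regulators of ribosomal protein genes 4 (13.8%) rose and 2 fell in WT at 3 h, near the 12.6% and 9.83% of all genes. With the block 12 rose, above the 21.3% of all genes, and 3 fell (15.9% of all genes). Myc, which drives ribosome production, read 9.98 and 8.85 FPKM in SB and 13.7 and 13.9 FPKM at 3 h in WT lines (0.51, limma adjusted p = 0.00532). It also rose in null cells, from 8.75 and 8.08 FPKM to 12.6 and 14.3 FPKM (0.62, limma adjusted p = 0.00323). Mycn, its relative in embryonic cells, went from 39.5 and 36.4 FPKM to 25.5 and 25.8 FPKM in WT and fell by 0.55 on the log2 scale (limma adjusted p = 0.00369). In null cells it changed by -0.14 (limma adjusted p = 0.297). Lamtor5, part of the complex that holds mTOR at the lysosome, rose by 0.53 in WT (limma adjusted p = 0.0293).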

How the data were processed

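Poly(A) RNA was primed with random hexamers and read as 50-base single reads, per the labels' protocols. The authors deposited FPKM values per locus and library in 1 table, with a text status (OK for every member), per the file headers. Per the submitters' processing notes, reads were placed on mm10. Aligner, quantifier and strand setting: not given in the sources used here. Values of overlapping and antisense genes are therefore uncertain. Of 17446 loci, 2666 had no gene name. For each name the row with the highest mean was kept, giving 13508 genes.

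Testing covered the 12823 genes that reached 1 FPKM in 2 or more libraries. On log2(FPKM + 1), limma 3.58.1 (R 4.3.3) estimated 6 group means with a variance trend, leaving 6 residual degrees of freedom. P-values were two-sided, adjusted by Benjamini and Hochberg over all tested genes, and called at an adjusted p below 0.05. "Rose" and "fell" mean called. This scale understates changes of low genes.

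Libraries of a cell line pair across treatments by design, so a fit with the line as a block stands beside the results (as a random effect between genotypes). Deviations of libraries of the same line correlated at 0.017 to 0.054 in WT and 0.246 to 0.349 in null lines. Transcript length is that of the shortest principal transcript in GENCODE M21 (73 of 77 members) and the trend on it was a loess of span 0.5. Start regions came from RefSeq (GRCm38.p6), and 20 members without one are not shown. Alternatives were a pseudocount of 0.1, a minimum of 5 FPKM, no filter, quantile normalization, median-ratio scaling, the length trend, and each line left out. Fits without 1 of 2 libraries, and the length trend with the block, were chosen after seeing the data.

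The members and all gene lists were chosen with earlier results of these data known. Members named were the 6 highest and 4 lowest by mean, the 5 largest and 5 smallest changes at 3 h in each genotype, all measured genes of the stalk, 5S, ubiquitin-fusion and paralogue groups, any called between genotypes, and the member next to the minimum of 1 FPKM. From each other list the 3 largest called changes in WT at 3 h were named. A gene that this rule names is not reported here.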

Additional observations from a re-analysis of the deposited data

How the results depend on the processing

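Counts of members called depended most on how the spread between lines was estimated. With the line as a block the totals were 65 (WT 6 h), 54 (null 3 h), 55 (null 6 h), 1 (WT 6 h against 3 h) and 2 (null 6 h against 3 h), and with the length trend also removed 46, 44, 43, 3 and 4. The length trend alone gave 21 (null 3 h, where 7.84% of all genes rose and 7.65% fell) and 6 (null 6 h, 8.84% and 7.06%). These totals join members called higher and lower, and the shares of all genes for the block alone are given above. A minimum of 5 FPKM gave 14, 13 and 5 for WT 6 h, null 3 h and null 6 h. Of the 7829 genes then tested, 1059 rose and 617 fell in WT at 6 h. In null cells 592 rose and 839 fell at 3 h, and 867 rose and 570 fell at 6 h. None of these member counts is above the share of all genes. Quantile normalization gave 30 (WT 3 h), 14 (WT 6 h), 17 (null 3 h) and 5 (null 6 h). Of all 12823 genes, 1372 rose and 1699 fell in WT at 3 h, and 1160 rose and 1328 fell at 6 h. In null cells 964 rose and 1103 fell at 3 h, and 961 rose and 1008 fell at 6 h. The member counts at 6 h are not above the shares of all genes. Without the SB library of null line 39 the counts were 41 (WT 6 h), 44 (null 3 h) and 44 (null 6 h), and without the 3 h library of null line 25 they were 3 (WT 6 h), 0 (null 3 h) and 1 (null against WT at 3 h). Leaving out each line in turn gave 0 to 65 for WT 3 h, 0 to 64 for WT 6 h, 0 to 50 for null 3 h, 0 to 48 for null 6 h, 0 to 5 for WT 6 h against 3 h, and 0 to 59, 0 to 6 and 0 to 51 between genotypes in SB, at 3 h and at 6 h. Fewer samples enter the fits without a library or a line, and their counts are not set against the shares of all genes here. The median-ratio scaling, the pseudocount of 0.1 and no filter kept each count within 1.5 times.

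The rise of the summed share was 1.99 to 2.34 percentage points with a line left out (p = 0.037, the smallest possible, exact permutation) and 2.16 with no replicate block (p = 0.00202). The difference of the share between null and WT was -0.11 to 1.235 percentage points with a line left out. Quantile normalization turned Rpl32 (-0.00755) below 0 in WT at 3 h. Read totals are unknown, and Rpl3l, at 1.46 to 5.14 FPKM, rests on the fewest reads per length of any member.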

Other observations

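Of the 79 core ribosomal proteins 8 had no member row. Rpl10, Rpl36a, Rpl39 and Rps4x lie on the X chromosome, from which no named locus is used here, and unnamed loci at their places read at means of 32.9, 8.93 and 10.8 FPKM for the first 3 and of 4.14 and 2.89 FPKM for the 2 loci at Rps4x. Rpl24 stood in a row joined with Zbtb11 (1512 FPKM). Loci over Rpl18 carried the names Dbp and Sphk2, and loci over Rps28 the names Kank3 and Ndufa7. Rows named for pseudogenes, left out by the rule, included Rpl39-ps at 3876 FPKM and Rpl36a-ps2 at 1417 FPKM, levels like those of the members. Rpl39-ps read 2917 and 2923 FPKM in SB and 4324 and 4206 FPKM at 3 h in WT lines 18 and 26. The joined Rpl24 row read 1128 and 1139.8 FPKM in SB and 1666 and 1636 FPKM at 3 h. These values belong to no comparison above.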
